A study of Mus musculus with 10 samples.

Results

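The genes described here are the 2 liver X receptor (LXR) genes and 5 genes that LXRs switch on: Nr1h2, Nr1h3, Abca1, Abcg1, Apoe, Lpcat3 and Mylip. The set is called LXR and cholesterol export genes, although Lpcat3 acts on membrane phospholipid and Mylip on lipoprotein receptors. The 7 genes were taken by symbol from a deposited table of 78317 genes, and each of the 7 symbols matched 1 row. Polyadenylated RNA had been sequenced from tissue punches, 1 mm across, of the medial prefrontal cortex of mice labelled wild type. In 5 libraries (numbers 3, 4, 5, 7 and 9) the mice had received a control adeno-associated virus (AAV), and in 5 libraries (13, 14, 15, 17 and 18) an AAV for overexpression of the microRNA miR-130a-3p. The AAV serotype, its promoter and the age, strain and number of the mice are not given in the sources used here. Each library is a mixture of the cell types of the punch.

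LXRs are nuclear receptors that bind oxysterols, the oxidized forms of cholesterol, and act on DNA as pairs with a retinoid X receptor (RXR). When a cell holds much sterol, LXRs raise the transporters that hand cholesterol to apolipoproteins outside the cell. The opposing arm, governed by the transcription factor SREBP-2, raises cholesterol synthesis and uptake when sterol is scarce. In brain, which makes its own cholesterol, astrocytes and microglia release it on particles that carry apolipoprotein E, and neurons take these up through lipoprotein receptors.

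The microRNA that was overexpressed pairs with messenger RNAs mainly through its seed, bases 2 to 8. It is printed here 5′ to 3′ with the seed in capitals because the sites below are read from it (mature sequence from RefSeq, GRCm38.p6).
miR-130a-3p: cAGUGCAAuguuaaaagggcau
Perfect matches to the seed (TTGCACT), to bases 2 to 7 followed by A (TGCACTA) and to both (TTGCACTA) were searched in the longest annotated 3′ untranslated region of each gene. Matches were present in 2 of the 7 genes, the transporters Abca1 and Abcg1. They are shown with 10 bases on either side and the match in capitals.
Abca1 first match: aggtcttcctTTGCACTgtgtcaagtg
Abca1 second match: ggatctatttTTGCACTggaatatctg
Abcg1 match: ctgtaagtaaTTGCACTAgatcatgtct
The matches in Abca1 began at bases 53 and 2962 of a region of 3156 bases, and the longer match in Abcg1 at base 1163 of 3703. No match was present in Nr1h2, Nr1h3, Apoe, Lpcat3 or Mylip, whose regions ran from 271 to 1512 bases. Among 13275 tested genes with such a region, 16% held a match of any kind and 2.46% the longer one. The median region of these genes was 1225 bases, shorter than those of Abca1 and Abcg1, and the shares were not matched for length. A match is a description of sequence, and binding was not measured.

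All 7 genes had lower group means in the miR-130a libraries, and 4 of them passed the test. Abca1, Abcg1, Mylip and Nr1h2 fell, 0 rose, and Lpcat3, Apoe and Nr1h3 did not pass. Values are TPM, a level scaled to transcript length and to the library total. Fold changes are on the log2(TPM + 1) scale, which understates the change of genes at a few TPM, and the test is limma with Benjamini-Hochberg adjustment over 15680 tested genes at a threshold of 0.05. In the same comparison 11.3% of tested genes were lower and 2.19% higher. The median log2 fold change was −0.48 over the 7 genes and −0.09 over all genes tested. The TPM ranges of the groups did not overlap for Abca1, Abcg1 and Mylip, as for 9.46% of tested genes in the lower direction. Nr1h3 has the least support, as 2 of its miR-130a values exceeded the control median.

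**Figure D1:**
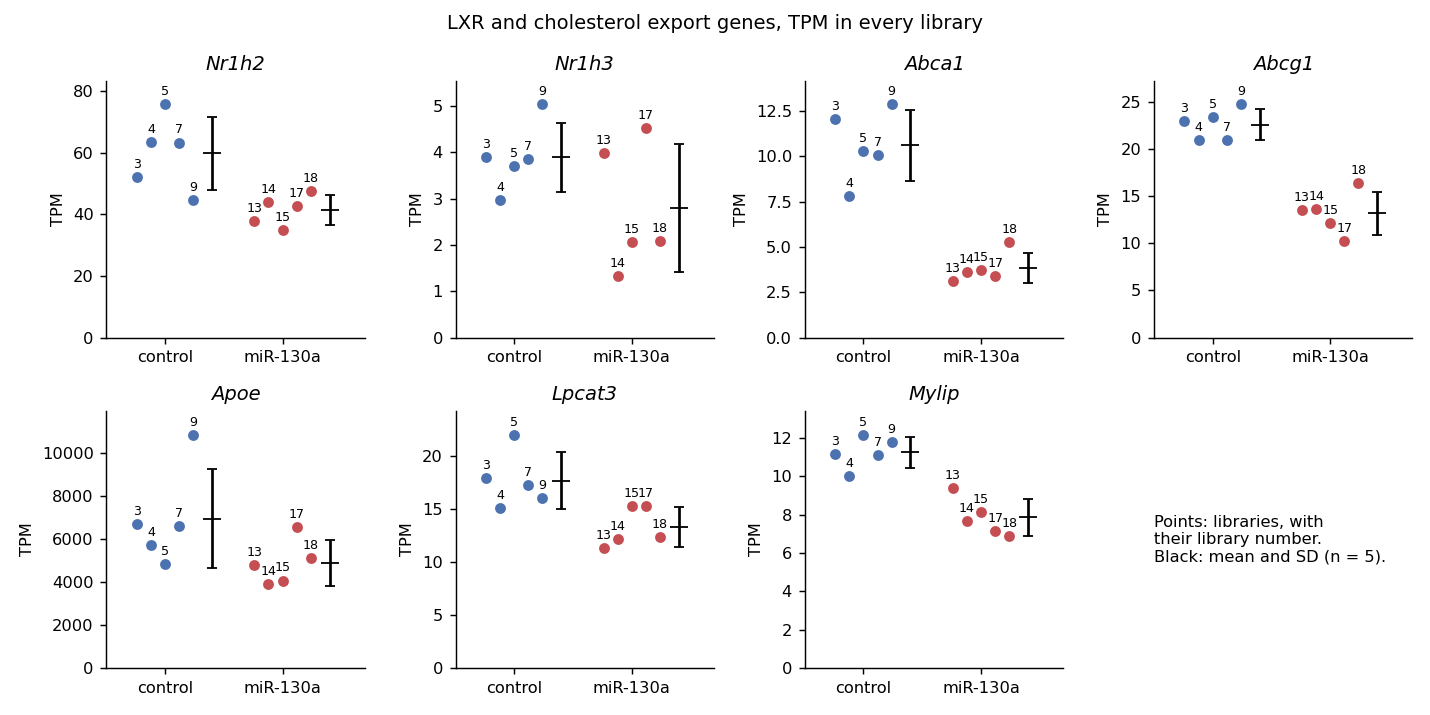
TPM of each gene (y axes, from 0) in 5 control (blue) and 5 miR-130a (red) libraries, numbered as in the labels, with the mean and SD of each group in black (n = 5). The red points lie below all blue points for Abca1, Abcg1 and Mylip, and mix with the blue ones for Nr1h3, Apoe, Lpcat3 and, by 1 control library, Nr1h2.

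Of the sensors, Nr1h2 encodes LXRβ, the form found in most tissues. Its control values were 52.09, 63.30, 75.65, 63.28 and 44.55 TPM in libraries 3, 4, 5, 7 and 9. In miR-130a libraries 13, 14, 15, 17 and 18 they were 37.76, 43.99, 34.98, 42.65 and 47.47 TPM. Control library 9 was low and lay below miR-130a library 18, while the other 4 control libraries lay above all 5 miR-130a libraries. Nr1h2 fell from 59.8 ± 11.9 to 41.4 ± 4.99 TPM (SD, n = 5 each; log2 fold change −0.51, SE 0.14, limma adjusted p = 0.0348; exact permutation p = 0.0159). The call is a narrow one. It was lost without control library 4, 5 or 7 or miR-130a library 13, 14, 15 or 17, with limma adjusted p-values up to 0.0871, and under median-ratio scaling, where the log2 fold change was −0.39 (adjusted p = 0.0738).

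Nr1h3 encodes LXRα, which is most abundant in liver, fat and macrophages, and was the least expressed of the 7 genes. It stood at 3.89, 2.97, 3.70, 3.85 and 5.03 TPM in the control libraries and at 3.98, 1.34, 2.06, 4.52 and 2.08 TPM in the miR-130a libraries, in the order used above. The miR-130a libraries were spread widely: 14, 15 and 18 lay below every control, whereas 13 and 17 lay among the controls. The group means were 3.89 ± 0.739 and 2.80 ± 1.37 TPM (SD, n = 5 each), and the log2 difference of −0.43 had a 95% interval from −0.93 to 0.08 (limma adjusted p = 0.256; exact permutation p = 0.127). Without miR-130a library 14 it was −0.27, and without library 17 it was −0.58. A non-coding gene model, Gm13783, overlaps Nr1h3 on the same strand in GENCODE M21, so some of its low signal cannot be assigned with certainty. The difference in log2(TPM + 1) between the receptor genes within a library, Nr1h3 minus Nr1h2, was higher by 0.08 in the miR-130a group (exact permutation p = 0.881). A difference between the 2 receptors in their response was thus not detectable with these libraries.

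Abca1 encodes the transporter that loads cholesterol and phospholipid onto lipid-poor apolipoproteins. The control libraries held 12.04, 7.79, 10.30, 10.08 and 12.87 TPM. In the miR-130a libraries the values were 3.12, 3.61, 3.76, 3.42 and 5.29 TPM. The highest miR-130a library, 18, was below the lowest control, 4. Abca1 fell from 10.6 ± 1.97 to 3.84 ± 0.845 TPM, a mean lower by 63.8% (SD, n = 5 each; log2 fold change −1.26, SE 0.15, limma adjusted p = 0.000927; exact permutation p = 0.00794, the smallest the 252 splits can give). By size, 2.89% of tested genes had a log2 fold change as low or lower. Abca1 passed in all 19 alternative settings, with log2 fold changes from −1.45 to −1.08.

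Abcg1 encodes the transporter that passes cholesterol to particles that already carry lipid, and it acts after Abca1 in the export route. Its values were close together in the control libraries, at 22.95, 20.92, 23.32, 20.89 and 24.70 TPM. The miR-130a libraries held 13.54, 13.61, 12.14, 10.22 and 16.41 TPM. The groups did not overlap, and library 18 was again the highest of its group. Abcg1 fell from 22.6 ± 1.64 to 13.2 ± 2.27 TPM, a mean lower by 41.5% (SD, n = 5 each; log2 fold change −0.74, SE 0.12, limma adjusted p = 0.00282; exact permutation p = 0.00794). It also passed in all 19 alternative settings, with log2 fold changes from −0.82 to −0.59.

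Apoe encodes the main apolipoprotein of brain lipid particles, made chiefly by astrocytes and by activated microglia. It ranked 11 among all listed genes by mean control TPM, with 6723.58, 5727.72, 4860.51, 6605.97 and 10874.76 TPM in the control libraries. The miR-130a libraries held 4808.50, 3891.01, 4073.29, 6550.55 and 5133.69 TPM. Control library 9 was the highest by far, and miR-130a library 17 lay among the controls. The means were 6959 ± 2315 and 4891 ± 1059 TPM (SD, n = 5 each), with a log2 difference of −0.48 and a 95% interval from −0.94 to −0.01 (limma adjusted p = 0.165; exact permutation p = 0.0635). Without control libraries 7 and 9 the difference was −0.25 (adjusted p = 0.403), while quantile normalization gave −0.84 (adjusted p = 0.0146). Over the alternatives run, Apoe ranged more widely than the other 6 genes.

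Lpcat3 encodes the acyltransferase that places polyunsaturated fatty acids into membrane phosphatidylcholine, and Mylip encodes the ubiquitin ligase, also called IDOL, that marks lipoprotein receptors for degradation. Lpcat3 was at 17.89, 15.04, 22.01, 17.28 and 15.98 TPM in the control and 11.27, 12.18, 15.30, 15.30 and 12.31 TPM in the miR-130a libraries. Control library 4 lay just below miR-130a libraries 15 and 17, and the means were 17.6 ± 2.68 and 13.3 ± 1.89 TPM (SD, n = 5 each). Its log2 difference of −0.38 (SE 0.12) missed the threshold (limma adjusted p = 0.0631; exact permutation p = 0.0238) and passed it without control library 9 (adjusted p = 0.0447). Lpcat3 overlaps Emg1 on the opposite strand by 334 bases in GENCODE M21, and whether counting used strand is not given in the sources used here.

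Mylip was at 11.14, 10, 12.17, 11.09 and 11.79 TPM in the control libraries. In the miR-130a libraries it was at 9.38, 7.67, 8.13, 7.15 and 6.90 TPM. The groups did not overlap, although miR-130a library 13 came close to control library 4. Mylip fell from 11.2 ± 0.827 to 7.85 ± 0.980 TPM, a mean lower by 30.2% (SD, n = 5 each; log2 fold change −0.47, SE 0.10, limma adjusted p = 0.0121; exact permutation p = 0.00794). The call was lost under quantile normalization only among the 19 settings (log2 fold change −0.30, adjusted p = 0.0778).

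**Figure D2:**
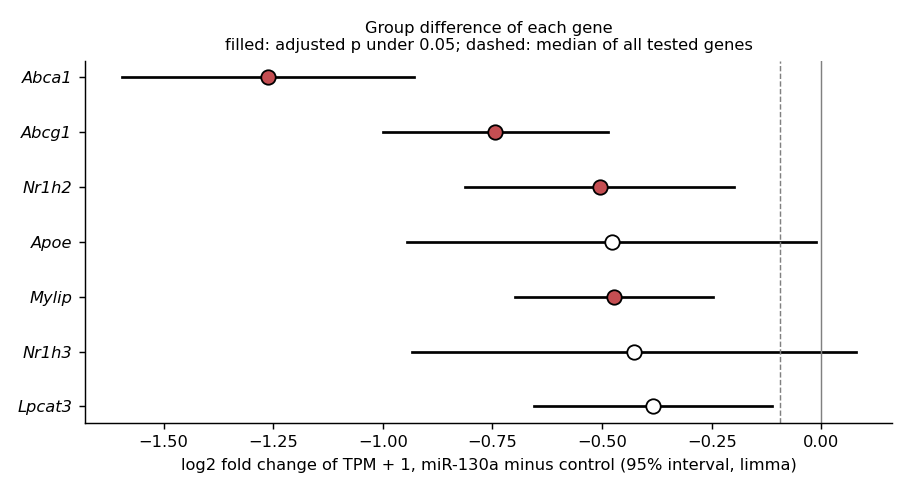
Log2 fold change of TPM + 1 (x axis, miR-130a minus control) of the 7 genes with 95% intervals from limma. Filled points passed an adjusted p of 0.05. The interval of Abca1 lies farthest from 0, and that of Nr1h3 includes 0.

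Abca1 fell more than the other 6 genes. The difference in log2(TPM + 1) between 2 genes within each library was compared between the groups for all 21 pairs. In 6 pairs the difference changed beyond the exact permutation test, and all 6 were the pairs with Abca1 (exact permutation p = 0.00794 each, 0.0278 after Benjamini-Hochberg adjustment over the 21 pairs). Abca1 dropped by 0.52 more than Abcg1, by 0.76 more than Nr1h2, by 0.78 more than Apoe and by 0.79 more than Mylip on the log2 scale. Against Nr1h3 and Lpcat3 the excess was 0.83 and 0.88. The 15 pairs without Abca1 had unadjusted exact permutation p-values of 0.103 or more, which does not show that those genes moved alike. Leaving out 1 library left Abca1 lower relative to its partner in all 6 pairs, with separate ranges and an excess of 0.45 to 1.00 on the log2 scale. The adjusted test is weak there, since with 9 libraries 4 pairs must sit at the smallest exact permutation p of 0.00794 for any to pass. No pair passed in 9 of those 10 cases, and 4 did without miR-130a library 18, of which 3 held Abca1. Without control libraries 7 and 9 the excess was 0.45 to 0.94, and 8 pairs would have to sit at the smallest p the 56 splits allow.

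The order of the genes by mean TPM, which is per transcript length, differed between the groups only for Abcg1 and Lpcat3. In the control group Apoe was highest, followed by Nr1h2, Abcg1, Lpcat3, Mylip, Abca1 and Nr1h3. Abcg1 exceeded Lpcat3 in 5 of 5 control libraries with overlapping ranges, and Mylip exceeded Abca1 in 3 of 5. In the miR-130a group Lpcat3 and Abcg1 had nearly the same mean, 13.3 and 13.2 TPM, with Lpcat3 higher in 2 of 5 libraries. Mylip exceeded Abca1 in 5 of 5 of these libraries without overlap, and Abca1 now overlapped Nr1h3.

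The libraries of a group did not rank the genes alike. In the control group library 9 had the highest Apoe, Nr1h3, Abca1 and Abcg1 and the lowest Nr1h2, while library 5 had the highest Nr1h2, Lpcat3 and Mylip and the lowest Apoe. In the miR-130a group library 18 had the highest Abca1, Abcg1 and Nr1h2 but the lowest Mylip. Library 14 was below every control in all 7 genes, libraries 13 and 15 in 6, library 18 in 5 and library 17 in 4.

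**Figure D3:**
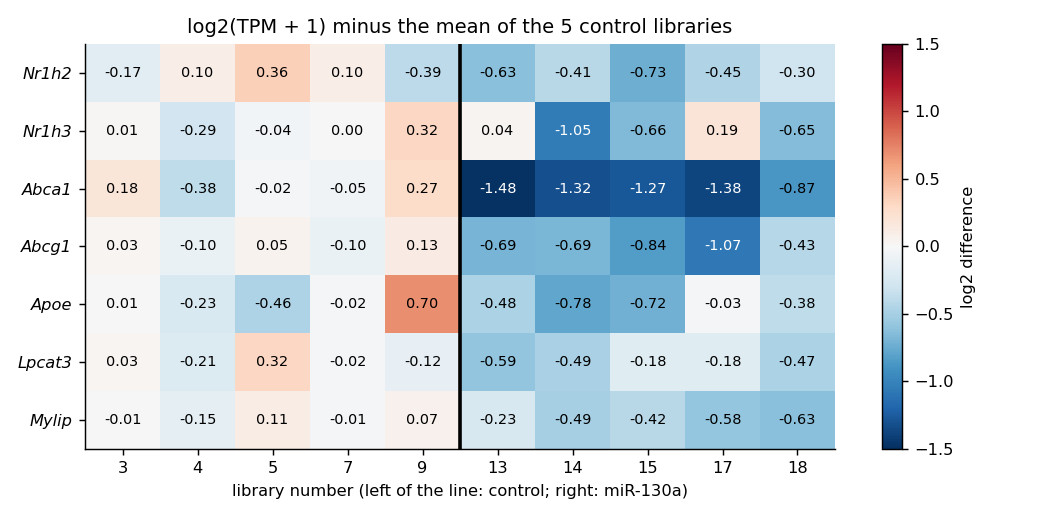
Log2(TPM + 1) of the 7 genes (rows) in each library (columns, by library number) minus the mean of the 5 control libraries. The Abca1 row runs from −1.48 to −0.87 in the miR-130a libraries, and the only positive values right of the line belong to Nr1h3 in libraries 13 and 17.

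The genes were chosen for known roles in sterol sensing, cholesterol export or other LXR responses. Functional terms in the deposited annotation record such roles. Shared terms are therefore a description and no separate support for the grouping. Cholesterol homeostasis is attached to 5 of the 7 (Nr1h2, Nr1h3, Abca1, Abcg1 and Mylip) and to 48 tested genes in all. Positive regulation of cholesterol efflux is attached to Nr1h2, Nr1h3, Abca1 and Abcg1, 4 of the 8 tested genes that carry it. The DR4 response element, the direct repeat bound by the LXR and RXR pair, was searched on both strands with up to 2 mismatches in its 12 fixed bases. No match was present in the promoter windows of the 6 genes found in the RefSeq table (GRCm38.p6), all but Abcg1, which says only that these letters are not in these windows. These windows run from 250 bases before to 50 after an annotated start, and 3.02% of 32851 such windows held a match.

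Among other genes known as LXR targets, the lipid genes Srebf1, Plin2, Pltp and Abca7 were lower. Of 24 listed, 20 were tested, of which 4 were lower, 0 higher and 16 did not pass, with a median log2 fold change of −0.14 beside −0.09 for all genes tested. That is a called share of 20% beside 13.5% of all tested genes. Srebf1, the transcription factor of fatty acid synthesis that LXRs raise, fell from 36.0 ± 1.67 to 22.8 ± 4.31 TPM (SD, n = 5 each; log2 fold change −0.66, limma adjusted p = 0.00576). The control values of Srebf1 were 33.15 to 37.32 TPM with a median of 36.54, and the miR-130a values 17.07 to 28.35 TPM with a median of 21.93. Plin2, which coats lipid droplets, fell from 13.7 ± 4.37 to 6.64 ± 1.03 TPM (−0.91, limma adjusted p = 0.00905), with all miR-130a libraries below all controls. Pltp, a phospholipid transfer protein, fell from 123 ± 12.5 to 79.3 ± 21.8 TPM (−0.66, 0.0247). The transporter gene Abca7 was at 4.98 ± 0.734 and 3.41 ± 0.457 TPM (−0.44, 0.0455). The call of Pltp was lost without control library 4 or 7 or miR-130a library 13 or 14 (limma adjusted p up to 0.0687). That of Abca7 was lost without any library except control library 9 (up to 0.109). Both calls were also lost without a filter, under median-ratio scaling and under quantile normalization. The desaturase Fads1, 106 ± 18.9 and 141 ± 17.2 TPM, had the opposite sign and did not pass (0.42, limma adjusted p = 0.0529). Under median-ratio scaling 2 of these LXR targets were lower and 1 higher.

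Among the partners of the receptors, Rxra, Rxrb, Ncoa3 and Carm1 were lower. Of 18 RXR and coregulator genes tested, 4 were lower, 0 higher and 14 did not pass, with a median log2 fold change of −0.22. The called share was 22.2%, beside 13.5% of all tested genes. Rxra fell from 16.7 ± 1.24 to 12.3 ± 0.938 TPM and Rxrb from 54.8 ± 5.36 to 42.2 ± 3.07 TPM (SD, n = 5 each; log2 fold changes −0.41 and −0.37, limma adjusted p = 0.0118 and 0.0232). Both had all miR-130a libraries below all controls. Rxrg, with means of 4.87 (SD 0.998) and 5.6 TPM (SD 1.19), did not pass (0.17, 0.549). The coactivator Ncoa3 had a control mean of 9.11 ± 2.12 TPM and a miR-130a mean of 5.64 ± 1.08 TPM (adjusted p = 0.0317 by limma), and the coactivator Carm1 means of 40.3 ± 8.39 and 28.1 ± 2.83 TPM (0.0481). The call of Rxra was lost under quantile normalization (log2 fold change −0.25, limma adjusted p = 0.0953). The other calls were lost on leaving out single libraries, 6 of the 10 in turn for Rxrb, 7 for Ncoa3 and 9 for Carm1 (limma adjusted p up to 0.0621, 0.0824 and 0.107). For Rxrb these were control libraries 3, 4 and 7 and miR-130a libraries 13, 14 and 15. For Ncoa3 they were control libraries 3, 5 and 7 and miR-130a libraries 13, 14, 17 and 18, and for Carm1 every library but control 9. Quantile normalization also lost the calls of Rxrb, Ncoa3 and Carm1, and median-ratio scaling those of Rxrb and Carm1. Ncoa3 and Carm1 lost theirs without a filter and without mitochondrially encoded genes as well. Without control libraries 7 and 9, 7 genes of this list were lower.

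Among the enzymes that make or remove the sterol ligands of LXRs, Sc5d was the gene that passed. Of 12 tested, 0 were lower, 1 was higher and 11 did not pass, a share of 8.33% beside 13.5% of all tested genes. Sc5d, a late enzyme of cholesterol synthesis, was at 22.5 ± 2.73 and 31.7 ± 4.88 TPM (SD, n = 5 each; log2 fold change 0.47, limma adjusted p = 0.0242). It lost the call without control library 3 or 7 or miR-130a library 13 (adjusted p up to 0.0683). Cyp46a1, the neuronal enzyme that turns cholesterol into 24-hydroxycholesterol, was at 139 ± 29.2 and 131 ± 11.5 TPM (−0.07, SE 0.14, adjusted p = 0.812). Ch25h, which makes 25-hydroxycholesterol in activated myeloid cells, was below the expression filter and was not tested. Its values were 0.64, 1.28, 0.56, 2.07 and 1.76 TPM in the control and 0.12, 0.14, 0.46, 0.07 and 0.63 TPM in the miR-130a libraries, and the groups overlapped by 1 miR-130a library, 18.

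Several genes that move, store or receive cholesterol were lower. Of 19 tested genes of sterol trafficking and ester storage, 8 were lower and 1 was higher, with a median log2 fold change of −0.34. Calls made up 47.4% of this list and 13.5% of all tested genes. Lipa, the lysosomal lipase that frees cholesterol from its esters, fell from 18.5 to 8.5 TPM (control SD 4.73, miR-130a SD 0.941, n = 5 each; log2 fold change −1.01, limma adjusted p = 0.00246). Soat1, which makes the esters, fell from 11.8 ± 3.17 to 5.63 ± 1.42 TPM (−0.94, 0.00977). Tspo, a mitochondrial outer membrane protein that is high in activated microglia, fell from 50.2 ± 25.4 to 16.5 ± 2.75 TPM (−1.42, 0.00817), and the lysosomal membrane protein Lamp1 from 431 ± 57.5 to 273 ± 20.1 TPM (−0.65, 0.00295). Stard4, a cytosolic cholesterol carrier and SREBP-2 target, was the gene that rose, from 8.17 ± 1.37 to 14.2 ± 2.96 TPM (0.73, 0.00804).

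Of 18 tested apolipoproteins and lipoprotein receptors, Apoe not counted, 7 were lower, 1 was higher and 10 did not pass (median log2 fold change −0.43). This is 44.4% called, beside 13.5% of all tested genes. The gene that was higher was Apoo, with means of 47.3 and 69.1 TPM (log2 fold change 0.52, limma adjusted p = 0.0212). On leaving out 1 library, 0 to 1 genes of this list were higher. Trem2, the microglial receptor that binds lipids and apolipoproteins, fell from 163 ± 54.1 to 52.7 ± 9.75 TPM (SD, n = 5 each; −1.57, limma adjusted p = 0.00122). Clu, the apolipoprotein also called apolipoprotein J and made by astrocytes, fell from 1317 ± 128 to 854 ± 99.0 TPM (−0.63, 0.00424). Lrp5 and Apol9b also fell (−0.61 and −1.51, with limma adjusted p-values of 0.00460 and 0.00564). The genes of 2 receptors that Mylip acts on did not pass. Vldlr was at 12.7 ± 1.46 and 12.3 ± 2.98 TPM (−0.07, 0.821) and Lrp8 at 16.9 ± 4.38 and 10.8 ± 4.06 TPM (−0.64, 0.125). Under median-ratio scaling the sign of Vldlr turned, at 0.04.

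Of the relatives of the transporters and of Lpcat3, Lpcat2 had the lowest p. Of 17 other ABCA and ABCG genes, 9 were tested, and 2 were lower, Abca7 and Abca9, while 0 were higher (22.2% called, beside 13.5% of all tested genes). Abca9 was at 3.28 ± 0.636 and 2.02 ± 0.275 TPM (SD, n = 5 each; log2 fold change −0.49, limma adjusted p = 0.0421), and under median-ratio scaling 0 of the 9 passed. The myelin transporter Abca2 was at 68.7 ± 15.5 and 48.3 ± 6.46 TPM (−0.48, 0.0544), and Abca3 and Abca5 did not pass (−0.36 and 0.24). Of 13 tested acyltransferase relatives, 4 were lower and 0 higher (30.8% called, beside the same 13.5%). Lpcat2, an enzyme of inflammatory lipid mediators in myeloid cells, fell from 21.2 ± 4.12 to 9.83 ± 2.02 TPM (−1.04, 0.00288), with no overlap of the groups. Lpcat1, Agpat2 and Agpat3 were lower by less (−0.36, −0.77 and −0.42, limma adjusted p = 0.0260, 0.0374 and 0.0430), and Agpat5 was higher without passing (0.30, 0.0555). Under median-ratio scaling Lpcat2 was the gene of this list called lower, and Agpat5 was called higher. On leaving out single libraries the call of Lpcat1 was lost for 5 of the 10 in turn (control 3, 5 and 7, miR-130a 14 and 15) and that of Agpat3 for 8 (all but control 9 and miR-130a 18). Agpat2 and Abca9 lost theirs for 8 as well, with limma adjusted p-values up to 0.109 over the 4 genes. Agpat2 kept its call without control library 5 or miR-130a library 17, and Abca9 without control library 7 or miR-130a library 18.

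Most genes of the SREBP-2 arm were higher. Of 24 SREBP-2 targets, all tested, 16 were higher, 0 lower and 8 did not pass, with a median log2 fold change of 0.64. The share higher was 66.7%, beside 2.19% of all tested genes. Msmo1, a demethylation enzyme of sterol synthesis, rose from 48.6 ± 5.35 to 110 ± 17.2 TPM. On the log2 scale Hmgcs1, which starts the pathway, rose by 1.07, Tm7sf2 by 0.92, Idi1 by 0.92 and Insig1, the sterol-sensing brake, by 0.81 (limma adjusted p for the 5 genes between 0.000607 and 0.00339). The control values of Hmgcs1 were 118.75, 117.59, 115.34, 88.95 and 87.41 TPM, and the miR-130a values 301.41, 195.50, 252.24, 201.21 and 172.71 TPM, without overlap. The gene of the factor itself, Srebf2, did not pass at 125 ± 31.9 and 129 ± 14.9 TPM (SD, n = 5 each; 0.07, adjusted p = 0.831). Under the 8 other scalings, filters, variance and pseudocount settings, between 14 and 17 SREBP-2 targets were higher and 0 lower.

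**Figure D4:**
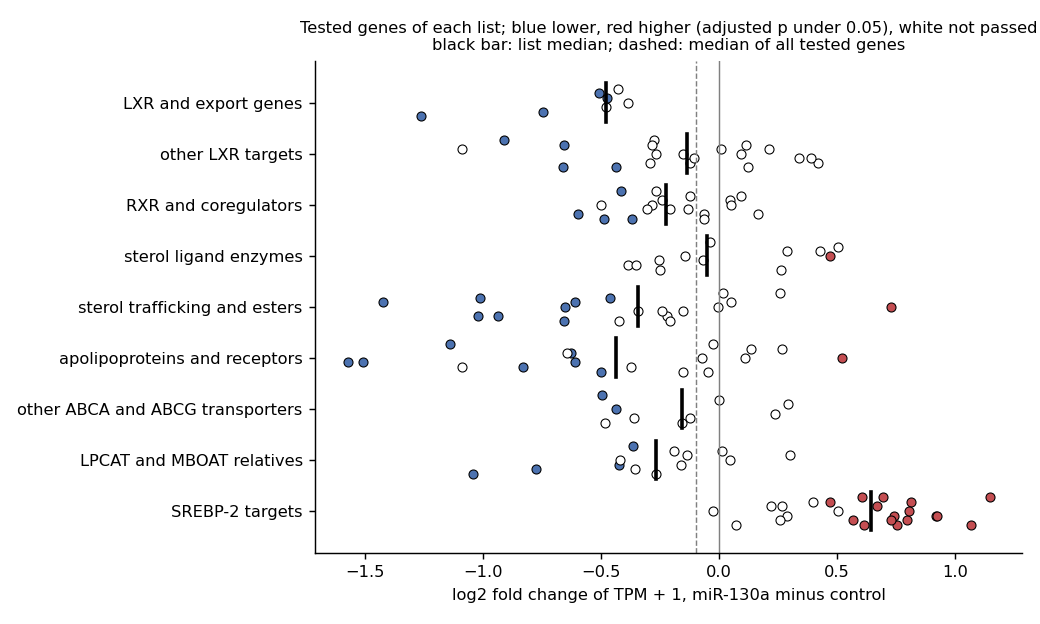
Log2 fold change of TPM + 1 (x axis) of every tested gene in the 9 lists (rows), with list medians as black bars and the median of all genes as a dashed line. The 16 red points of the SREBP-2 row lie right of 0, and the 4 blue points of the top row lie left of it.

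Markers of cell types that express these genes moved between the groups as well. The counts below stand beside 11.3% of all tested genes lower and 2.19% higher. Of 11 tested microglial markers, 9 were lower and 0 higher, and their summed level was 1030 to 2178 TPM in the controls and 516 to 695 TPM under miR-130a. Csf1r fell from 147 ± 23.4 to 55.7 ± 13.1 TPM and Laptm5 from 114 ± 24.6 to 40.6 ± 10.4 TPM (SD, n = 5 each; limma adjusted p = 0.000873 and 0.000978). The 2 microglial markers that did not pass were Gpr34 and P2ry12 (log2 fold changes −0.43 and −0.20, limma adjusted p = 0.0636 and 0.485). P2ry12 overlapped between the groups, with means of 42.5 and 36.8 TPM. Ctss had the highest control mean of the summed markers, 588 TPM, and ran from 285 to 1077 TPM in the controls. Of 8 endothelial markers 8 were lower (317 to 384 and 230 to 276 TPM summed), Pecam1 at −0.70, Cdh5 at −0.67 and Abcb1a at −0.58. Of 8 mural and fibroblast markers 5 were lower (197 to 282 and 119 to 171 TPM summed), among them Vtn, Pdgfrb and Col1a1. The other 3 did not pass, and among these the mural marker Rgs5 had means of 29.5 and 30.4 TPM (0.02, limma adjusted p = 0.954). Border macrophage markers were low, summing to 6.65 to 44.01 TPM in the controls and to 4.09 to 10.09 TPM under miR-130a. Of 3 tested 1 was lower, Ms4a7, which reached 34.97 TPM in control library 9. Its call was lost on leaving out any of 7 libraries, control 3 and 7 and all 5 miR-130a (limma adjusted p up to 0.0934). Mrc1 and Pf4 did not pass and had opposite signs (log2 fold changes −0.61 and 0.43, limma adjusted p = 0.101 and 0.306). In bulk tissue, fewer cells of a type and less RNA per cell cannot be told apart. The part of these marker differences in the values of the 7 genes was not tested.

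Astrocyte markers, which mark the other main source of Apoe and Abca1, did not pass: 0 of 10 were called, and their summed level was 1523 to 1868 TPM in the controls and 1646 to 2012 TPM under miR-130a. Their median log2 fold change was −0.23. Aldoc gave the largest part of the sum and had the sign opposite to that median, with means of 711 and 883 TPM (log2 fold change 0.30, limma adjusted p = 0.165). The sums therefore do not show the direction of most of these markers. Sox9, Slc1a3 and Aldh1l1 came closest (log2 fold changes −0.42, −0.26 and −0.51, limma adjusted p = 0.0540, 0.0792 and 0.0944). Of 10 oligodendrocyte, 6 precursor and 8 excitatory neuron markers 0 were called in either direction, and of 8 inhibitory neuron markers 2 were higher, Sst and Vip. The inhibitory marker sums were higher under miR-130a without overlap, 1019 to 1376 TPM in the controls and 1469 to 1831 TPM under miR-130a. Sst gave the largest part of these sums, with means of 645 and 1065 TPM. The call of Vip was lost on leaving out any of 7 libraries (control 4, 5 and 7, miR-130a 13, 14, 15 and 18; limma adjusted p up to 0.0905). Defining cortical markers were present in all libraries, with excitatory markers summing to 3321 to 5915 TPM in the controls and 4329 to 5340 TPM under miR-130a. Choroid plexus markers summed to at most 6.22 TPM.

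**Figure D5:**
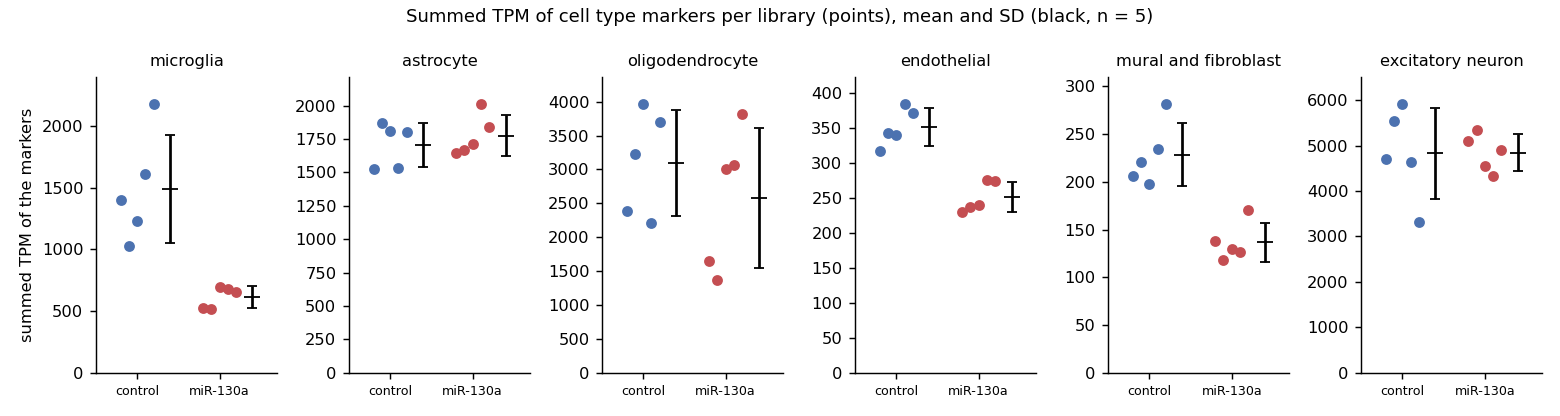
Summed TPM of the markers of 6 cell types (y axes, from 0) per library, with mean and SD in black (n = 5). The microglial, the endothelial, and the mural and fibroblast sums separate the groups, and astrocyte, oligodendrocyte and excitatory neuron sums overlap.

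To find genes with a similar pattern among libraries, each group was centred on its own mean, and the 2 protein-coding genes with the highest Pearson r over the 10 libraries were taken for each gene from 10155 candidates. These r values are the highest of many and are given as a description. Nr1h2 was closest to Kcnk1 and Fmnl1 (r = 0.96 each), Nr1h3 to Marcksl1 (0.90) and Tmem86a (0.89), and Abca1 to Fam219b (0.92) and Il10rb (0.87). Abcg1 was closest to Zmpste24 (0.90) and Smim30 (0.89), Apoe to the ribosomal protein genes Rpl37 (0.97) and Rps9 (0.96), Lpcat3 to Amz2 (0.93) and Mlec (0.92), and Mylip to Mettl15 (0.94) and Gsr (0.92). No gene appeared for more than 1 of the 7. Of these 14 genes, Tmem86a, Il10rb and Zmpste24 were lower between the groups (limma adjusted p = 0.00311, 0.000889 and 0.00676).

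Across libraries, mitochondrially encoded genes took 13.04% to 16.43% of TPM in control and 16.02% to 19.92% in miR-130a libraries (exact permutation p = 0.0397). Control library 9 correlated least with its own group over the tested genes (mean r 0.934, against 0.955 to 0.971 for the others). Rescaling without the mitochondrially encoded genes left Abca1, Abcg1 and Mylip lower, with log2 fold changes of −1.24, −0.69 and −0.42. Without control libraries 7 and 9 the same 4 genes were lower, Nr1h2 included. The depth of each library is unknown, because TPM keeps no read counts.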

How the data were processed

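The deposited table holds TPM of every gene in each library, made by the authors. The tools named, per the submitters' processing notes, are fastp, HISAT2, RSEM and DESeq2, with build GRCm39. Their versions and roles are not given in the sources used here. Per the labels' protocols, samples whose RNA integrity number reached 6.5 went into stranded, poly(A)-selected libraries. TPM has the same total in every library, so large changes in some genes shift the others. Count models were not used, and the authors' 2 columns of group means were not used.

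Genes with a mean of at least 1 TPM were tested as log2(TPM + 1) with limma 3.58.1 (trend) in R 4.3.3, 5 against 5, 2-sided, with no covariate. Exact permutation tests used all 252 assignments of 5 and 5 libraries. The library numbers run in separate blocks, so a batch that followed them cannot be told apart from the group. The labels do not say that libraries are separate mice, so p-values reflect library-to-library spread, which may be technical.

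The 7 genes and all lists were chosen with earlier results of these data known. Named were, from each list, the 5 genes with the lowest p (3 for markers), and by role Vldlr, Lrp8, Srebf1, Srebf2, Cyp46a1, Ch25h and the RXR genes, plus for each of the 7 genes the 2 genes most correlated with it among protein-coding genes of at least 5 TPM. Some genes that meet these rules are not reported here. Alternatives were other pseudocounts, filters and scalings, robust variance moderation and left-out libraries. Untranslated regions came from GENCODE M21 (GRCm38), matched by gene identifier, and since that build differs no gene coordinates are given. No protein sequences were used here. Figures used Python 3.11.15 and matplotlib 3.10.9.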

Additional observations from a re-analysis of the deposited data

Results flagged for a closer look

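In 2 of 154 groups of 5 libraries (77 named genes, 2 groups each) the highest or lowest library stood apart by Dixon's 95% gap criterion, where chance alone gives about 1 in 20. The sterol carrier gene Stard4 was at 19.53 TPM in miR-130a library 15, with the next library of that group at 13.18 TPM. Srebf2 was at 154.35 TPM in miR-130a library 17, with the next at 125.1 TPM. None of the 7 LXR and export genes was among them.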

How the results depend on the processing

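Abca1 and Abcg1 passed in all 19 alternatives, and Mylip in 18. The log2 fold change of Nr1h2 missed the threshold without a filter (−0.51, limma adjusted p = 0.0839), under median-ratio scaling (−0.39, 0.0738), under quantile normalization (−0.41, 0.0535) and without mitochondrially encoded genes (−0.45, 0.0560). Under quantile normalization Mylip missed it (−0.30, 0.0778), Apoe passed it (−0.84, 0.0146), and 17 distinct pathway genes were lower instead of 28. Leaving out 1 library gave log2 fold changes from −0.60 to −0.42 for Nr1h2 and from −0.44 to −0.31 for Lpcat3, which passed without control library 9 (−0.41, 0.0447), and 17 to 36 lower pathway genes, the 17 without miR-130a library 14. The change of Nr1h3 relative to Nr1h2 ran from −0.069 to 0.26 on leaving out 1 library and was −0.062 with a pseudocount of 0.1. Its sign turned without control library 4 or 5 or miR-130a library 13 or 17. The number of gene pairs past the threshold was 0 to 4 on leaving out 1 library, and 0 without control libraries 7 and 9, an alternative chosen with the data known, against 6. With 3 against 5 libraries the smallest exact permutation p is 0.0179, which 8 of the 21 pairs would have to reach, so that 0 says nothing about stability. Vldlr turned sign under median-ratio scaling (0.037), quantile normalization (0.10) and without miR-130a library 17 (range −0.15 to 0.062 on leaving out 1 library), and Cyp46a1 under median-ratio scaling (0.051), quantile normalization (0.0081) and without control library 4 (range −0.18 to 0.028). Srebf2 turned sign without control library 9 (range −0.083 to 0.16) and without control libraries 7 and 9 (−0.15). The causes of these shifts were not tested. Median-ratio scaling moved the median log2 fold change of all genes from −0.09 to 0.01, and 862 genes were then higher and 1192 lower, against 343 and 1767. Over 69 other named genes, 39 kept their call in every alternative. No paired analysis was possible because the groups share no replicate numbers.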

Other observations

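Seed matches for miR-130a-3p were also counted in the other lists, as a description of sequence. Of 19 tested sterol trafficking genes with an annotated 3′ untranslated region, 7 held a match, and of these Lipa, Cav1 and Osbpl5 were lower (log2 fold changes −1.01, −0.66 and −0.46, limma adjusted p = 0.00246, 0.0120 and 0.0257). With or without a match, 8 of the same 19 genes were lower. Among 18 RXR and coregulator genes 5 held a match, of which Rxra and Ncoa3 were lower. Of 24 SREBP-2 targets 3 held a match, of which 2 were higher, among them Hsd17b7 (0.80, limma adjusted p = 0.00986). The receptor gene Lrp8 held 2 matches and did not pass. Of the 20 other LXR targets 0 held a match, although 4 of them were lower. Among 13 acyltransferase relatives 5 held a match, of which 2 were lower. Among 18 apolipoproteins and lipoprotein receptors 4 held a match, of which 1 was lower. In the 12 sterol ligand enzymes and the 9 other ABCA and ABCG genes 0 matches were present. Over all tested genes with such a region, 13.9% of 2122 with a match were lower, and 12.7% of 11153 without one. Higher were 20 of the 2122 with a match and 268 of the 11153 without one. These shares were not tested and not matched for length. Aldoc, Rgs5, Gpr34, P2ry12, Ctss, Apoo, Cav1, Osbpl5 and Hsd17b7 were named after their values were seen.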
